A study of Homo sapiens with 21 samples.

Results

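The genes described here encode the enzymes, carriers and regulators of fatty acid oxidation. They are 35 genes out of 26809 that had a transcript in the RNA-seq files, and they were taken from a list by name: 5 of the carnitine shuttle, 8 acyl-CoA dehydrogenases, 6 enzymes of the later mitochondrial steps, 3 auxiliary enzymes for unsaturated fatty acids, 3 electron transfer proteins, 6 peroxisomal genes and 4 regulators. They were measured in 786-O, a widely used human line derived from clear cell renal carcinoma. A first group of 3 libraries came from cells infected with the JMJD6 guide RNA sg2, a second group of 3 from cells infected with the JMJD6 guide sg4, and the control group of 3 libraries from cells that received a control guide. JMJD6 encodes a 2-oxoglutarate-dependent oxygenase, and the labels give the genotype of both guide groups as JMJD6 knockout. The labels do not say whether knockout clones or pools of infected cells were used, nor whether the triplicates were separate cultures, so the p-values measure the spread between these libraries.

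In beta-oxidation a fatty acid is first joined to coenzyme A, passed through the mitochondrial membranes as an acylcarnitine, and then shortened in rounds of dehydrogenation, hydration, a further dehydrogenation and thiolysis. The acyl-CoA dehydrogenases hand their electrons to the electron transfer flavoprotein and from there to the respiratory chain, and very long and branched chains are first shortened in peroxisomes. The PPAR nuclear receptors and their coactivator PGC-1alpha are known to raise transcription of many of these genes. Clear cell renal carcinoma, like the proximal tubule it is thought to arise from, is known for its lipid metabolism: the tubule burns fatty acids, whereas the tumour cells store them in lipid droplets.

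Promoters are shown for 3 members that passed the test below with both guides against the controls, ACADVL and ACAD9 as lower and ECHS1 as higher. Neither ACADVL nor ACAD9 passed with sg4 alone. The ECHS1 result was close to the threshold and was lost in 14 of 21 alternative settings. ACADVL encodes the very-long-chain acyl-CoA dehydrogenase, ACAD9 a related dehydrogenase that also serves in the assembly of respiratory complex I, and ECHS1 the short-chain enoyl-CoA hydratase. Each line holds the 250 bases before a transcription start listed by RefSeq on GRCh38.p14, written 5′ to 3′ on the gene's strand, and capitals mark a match on either strand to the E-box CACGTG, to the NRF1 element or to the start-site motif TATAAA. ACADVL has 2 listed starts, of which the upstream one is shown (chr17:7216875-7217124, plus strand). The ACAD9 stretch is chr3:128879370-128879619 on the plus strand, and the ECHS1 stretch is chr10:133373355-133373604 on the minus strand.
ACADVL: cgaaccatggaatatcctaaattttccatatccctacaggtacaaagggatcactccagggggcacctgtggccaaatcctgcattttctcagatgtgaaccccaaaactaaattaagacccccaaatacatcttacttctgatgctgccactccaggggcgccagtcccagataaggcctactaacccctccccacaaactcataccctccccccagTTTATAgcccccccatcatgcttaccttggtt
ACAD9: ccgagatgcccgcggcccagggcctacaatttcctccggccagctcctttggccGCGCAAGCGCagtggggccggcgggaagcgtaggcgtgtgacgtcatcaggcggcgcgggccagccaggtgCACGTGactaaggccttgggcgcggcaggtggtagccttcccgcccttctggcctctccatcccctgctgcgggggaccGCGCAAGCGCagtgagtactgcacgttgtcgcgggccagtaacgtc
ECHS1: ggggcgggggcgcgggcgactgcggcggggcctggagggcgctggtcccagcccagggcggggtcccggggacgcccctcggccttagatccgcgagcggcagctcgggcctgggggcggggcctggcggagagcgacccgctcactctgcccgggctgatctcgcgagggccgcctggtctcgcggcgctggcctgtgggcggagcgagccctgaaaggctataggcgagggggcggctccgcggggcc

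The ACAD9 promoter held the NRF1 element, its longest capitals, 2 times, from 196 to 187 and from 46 to 37 bases before the start, and an E-box from 125 to 120 bases before it. The upstream ACADVL start had TATAAA on the opposite strand, from 32 to 27 bases before the start. Its window had 52.7% GC, whereas that of the other listed ACADVL start had 65.7% GC and none of the motifs searched. Which start the measured RNA used was not tested. Within the windows of 300 bases, 250 before to 50 after a start, RefSeq gave 40 windows for 29 of the 35 members. The NRF1 element was found in 4 of these windows (10%), those of ACAD9, ABCD3, ETFB and PPARA, and in 5.78% of the 35116 windows of all genes. CACGTG stood in 2 member windows, of ACAD9 and PPARGC1A, and in 7.26% of all windows, and TATAAA in 1 member window and in 11.5% of all. AGGTCA, the core site of nuclear receptors, was matched in 1 member window (2.5%), that of ACAD10, and in 13.8% of all. It is contained in the next 2 motifs. The direct repeat bound by PPARs, 2 copies of AGGTCA with any 1 base between, was matched in 0 of 40 member windows and 0.0228% of all windows, and the element of the estrogen-related receptors, AGGTCA with 3 fixed bases before it, in 0 member windows and 0.353% of all. CCAAT was present in 10 member windows (25%) and 34.6% of all windows. Member windows had a median GC content of 67.2%, against 58.7% over all windows. HADHA and HADHB, which encode the alpha and beta subunits of the mitochondrial trifunctional protein, start 307 bases apart on opposite strands, and their windows share 194 bases.

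The libraries held from 14302316 to 16300347 estimated counts with sg2, from 15445425 to 16172033 with sg4 and from 14224263 to 15549632 in the controls. JMJD6 itself was at 17.1, 16.1 and 17.3 CPM with sg2, at 11.7, 14.4 and 10.7 CPM with sg4, and at 41.5, 40.9 and 44.4 CPM in the controls, where CPM is the count scaled to the normalised library size. No knockout library overlapped the controls, and with both guides the log2 fold change averaged −1.56 ± 0.086 (SE, adjusted p = 5.41e-12 by edgeR's quasi-likelihood test with Benjamini-Hochberg adjustment). Of 8 renal markers, 7 were over 1 TPM in every library, among them PAX8 and PAX2, while CA9, a target of hypoxia-inducible factors, was at 0.630 to 2.04 TPM. Markers of endothelium and muscle summed to at most 0.160 and 0.393 TPM in any library, and among leukocyte markers CD3E was at 0 throughout. The 7 fibroblast markers summed to 5.91 to 10.4 TPM in knockout libraries and 9.41 to 36.9 TPM in controls, with control library 1 the highest. With both guides LUM fell by 0.97 (log2, adjusted p = 0.00244) and COL1A2 by 4.35 (adjusted p = 0.00131, edgeR), and COL1A1 and PDGFRB were not called. LUM was at 4.50 to 6.49 TPM in knockout libraries and 7.90 to 18.5 TPM in controls. COL1A2 was at 7.49, 0.529 and 0.0546 TPM in the controls. The 6 leukocyte markers, almost wholly CD68, summed to 53.5 to 63.2 TPM in knockout libraries and 66.4 to 86.6 TPM in controls. CD68 fell by 0.28 (log2, adjusted p = 0.0193) and CSF1R, the other leukocyte marker over 1 TPM, rose by 0.83 with both guides (adjusted p = 0.0113, edgeR). Of the renal markers CDH16 fell by 0.68 (adjusted p = 9.27e-06) and GGT1 by 0.22 (adjusted p = 0.00409), while KRT18 rose by 0.45 (adjusted p = 5.96e-06, edgeR). The part of any of these lists in the results was not tested. Of the hepatocyte and neuron lists, CPS1 and SNAP25 exceeded 1 TPM in every library. Since these are bulk samples, fewer cells of a type and less RNA per cell cannot be told apart.

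The RNA levels of the 35 genes spanned a wide range within the cells, and 34 of them were expressed well enough to be tested. TPM divides by transcript length and is used here to compare genes. In every library 26 members were over 10 TPM, 8 were over 10 TPM in some or no library, and CPT1C was under 1 TPM throughout. CPT1C, the neuronal form of the outer-membrane carnitine transferase, had 4 counts in sg4 library 3, 1 count in control library 1 and 0 in the other 7 libraries, where 3 counts correspond to 0.184 to 0.211 CPM. Ordered by their mean in the controls, 23 of 34 neighbouring pairs overlapped in TPM, so that most ranks are not distinct.

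**Figure D1:**
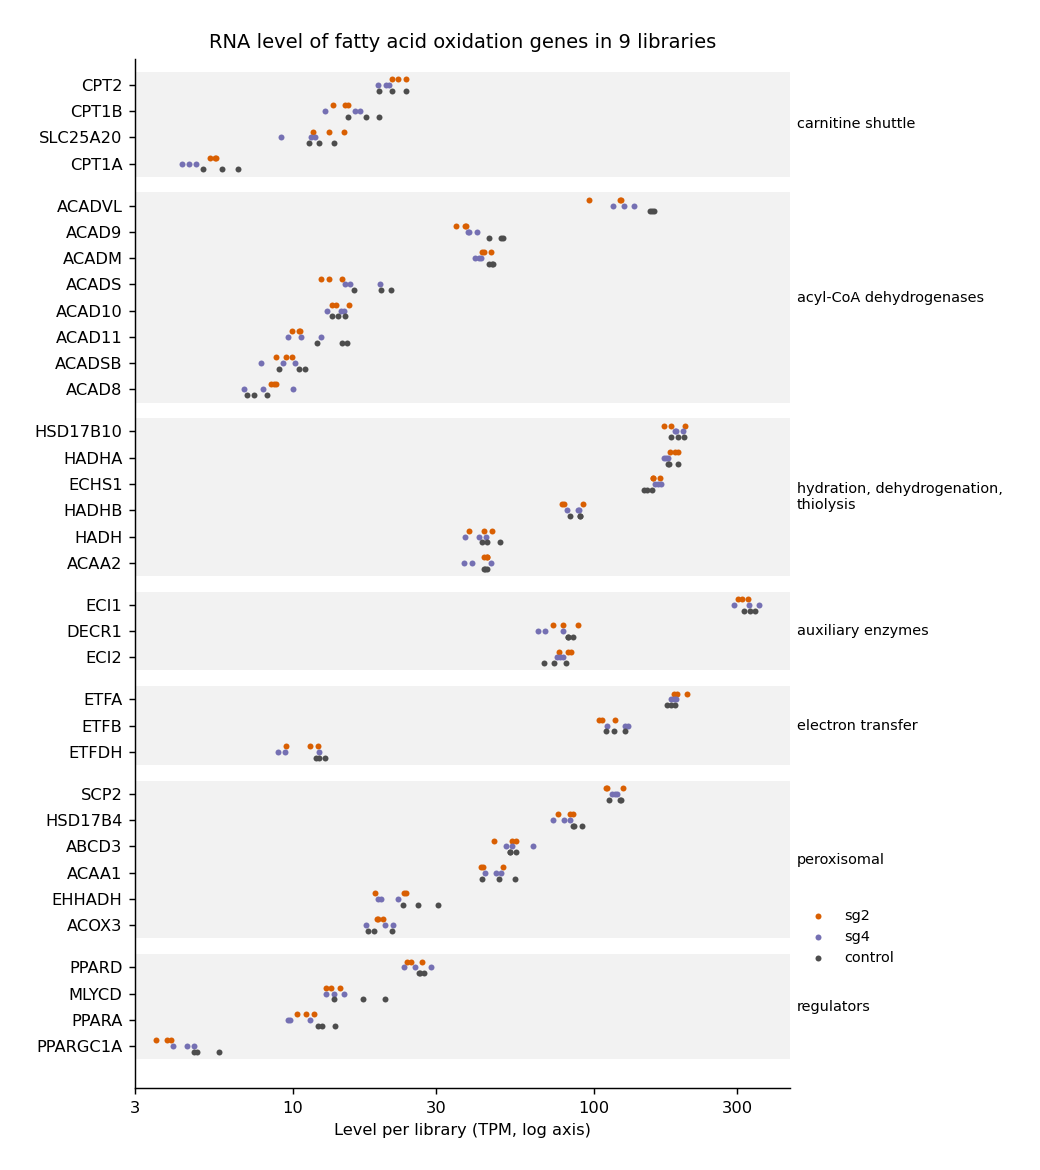
Level of 34 fatty acid oxidation genes in TPM per library on a log axis, grouped by role and ordered by level within a role. Each point is 1 library, with sg2, sg4 and control drawn in rows from top to bottom, and CPT1C, under 0.2 TPM throughout, is not drawn. By their control means ECI1 was the highest and PPARGC1A the lowest gene drawn, and the ACADVL points of both guides lie left of all 3 controls.

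ECI1, the mitochondrial enoyl-CoA delta isomerase that moves double bonds of unsaturated chains, was the highest member at 312 ± 11.4 TPM with sg2, 325 ± 30.9 TPM with sg4 and 330 ± 14.3 TPM in the controls (SD, n = 3 each). It did not overlap the next gene among the controls. HSD17B10, HADHA and ETFA followed at 190, 181 and 181 TPM in the controls, and overlapped one another. HSD17B10 encodes a hydroxyacyl-CoA dehydrogenase that acts mainly on branched-chain substrates, and ETFA the alpha subunit of the electron transfer flavoprotein. ACADVL averaged 156 and ECHS1 151 TPM in the controls. SCP2, a peroxisomal thiolase and sterol carrier, and ETFB, the beta subunit of the flavoprotein, were near each other at 119 and 118 TPM in the controls. HADHB, HSD17B4 (the peroxisomal D-bifunctional protein) and DECR1 (2,4-dienoyl-CoA reductase) lay at 88.0, 87.4 and 83.2 TPM in the controls.

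Within the acyl-CoA dehydrogenases the chain-length forms were unequal. After ACADVL came ACAD9 at 48.0 and ACADM, the medium-chain enzyme, at 45.7 TPM in the controls, and then ACADS, the short-chain enzyme, at 19.0 TPM. The less studied ACAD10 and ACAD11 were at 14.2 and 13.9 TPM, and ACADSB and ACAD8, of branched-chain amino acid breakdown, at 10.2 and 7.58 TPM in the controls. ACADVL stood at 2.60 ± 0.291 times ACADM in TPM with sg2, at 3.05 ± 0.296 times with sg4 and at 3.41 ± 0.00903 times in the controls (SD, n = 3 each). The 6 knockout ratios were all below the 3 control ratios.

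Among the groups of enzymes the carnitine shuttle had the lowest summed level. CPT1A, the liver form of the outer-membrane transferase that makes acylcarnitines and is the rate-limiting step of entry, was at 5.48 ± 0.131 TPM with sg2, 4.52 ± 0.238 TPM with sg4 and 5.80 ± 0.781 TPM in the controls (SD, n = 3 each). CPT1B, the muscle form, was higher at 14.6 ± 0.867, 15.2 ± 2.14 and 17.4 ± 2.08 TPM with sg2, with sg4 and in the controls. The ratio of CPT1A to CPT1B in TPM stayed between 0.281 and 0.390 over all 9 libraries. CPT1B overlaps the readthrough transcript CHKB-CPT1B, which had 1172 counts beside 2780 for CPT1B, so the split of reads between them is uncertain. CPT2, the inner-membrane transferase, and SLC25A20, the carnitine-acylcarnitine carrier, were at 21.5 and 12.4 TPM in the controls. None of the 4 tested genes of the shuttle passed the test with both guides, with adjusted p of at least 0.302 (edgeR, Benjamini-Hochberg).

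Among the remaining genes ETFDH, the oxidoreductase that passes electrons from the flavoprotein to ubiquinone, was far below its partners at 11.001 ± 1.36 TPM with sg2, 10.2 ± 1.74 TPM with sg4 and 12.3 ± 0.427 TPM in the controls (SD, n = 3 each). ETFA was from 14.6 to 20.1 times ETFDH in TPM over the 9 libraries. HADHA was from 1.94 to 2.39 times HADHB in TPM. HADH, the short-chain hydroxyacyl-CoA dehydrogenase, and ACAA2, the mitochondrial thiolase, were at 45.2 and 43.6 TPM in the controls, and ECI2, an isomerase of peroxisomes and mitochondria, at 74.2 TPM. The peroxisomal genes ABCD3 (a fatty acyl-CoA importer), ACAA1 (a thiolase), EHHADH (the L-bifunctional enzyme) and ACOX3 (an oxidase of branched chains) were at 53.4, 48.6, 26.6 and 19.3 TPM in the controls. Of the regulators, PPARD was at 26.7, MLYCD at 17.02, PPARA at 12.9 and PPARGC1A at 5.07 TPM in the controls. MLYCD encodes malonyl-CoA decarboxylase, which removes the inhibitor of CPT1.

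With both guides against the controls, 5 members fell and 1 rose, and all these changes were small. The 5 that fell were ACADVL, ACAD9 and ACAD11 among the acyl-CoA dehydrogenases, the peroxisomal EHHADH and the nuclear receptor PPARA, and the 1 that rose was ECHS1. Over all 13530 genes tested, 6.95% fell and 6.92% rose, or 13.9% in either direction, against 17.6% of the 34 tested members, so the share of members called was near that of all genes. The median log2 fold change was −0.020 over the 34 members and −0.0059 over all genes, with 16 members positive and 18 negative. Without control library 3 and sg4 libraries 2 and 3, whose fold changes followed transcript length, 4 members fell (ACADVL, ACAD9, PPARA and ACADS) and 0 rose, against 4.26% and 3.73% of all genes in that fit. The comparisons of sg2 and of sg4 share their 3 controls. With sg2 alone, 5 members fell (ACADVL, ACAD9, ACAD11, ACADS and PPARGC1A) and 0 rose, against 5.36% and 5.0% of all genes, or 10.4% in either direction. At an unadjusted p under 0.05 in that comparison there were 11 members in either direction (32.4%), near the 24.7% of all genes. With sg4 alone, ECHS1 rose and 0 members fell, against 4.65% and 3.78% of all genes, or 8.43% in either direction, and 6 members (17.6%) had an unadjusted p under 0.05 by edgeR, against 23.3% of all genes. In 10 of 22 alternative settings at least 1 member fell with sg4, and in 7 of these 0 rose.

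**Figure D2:**
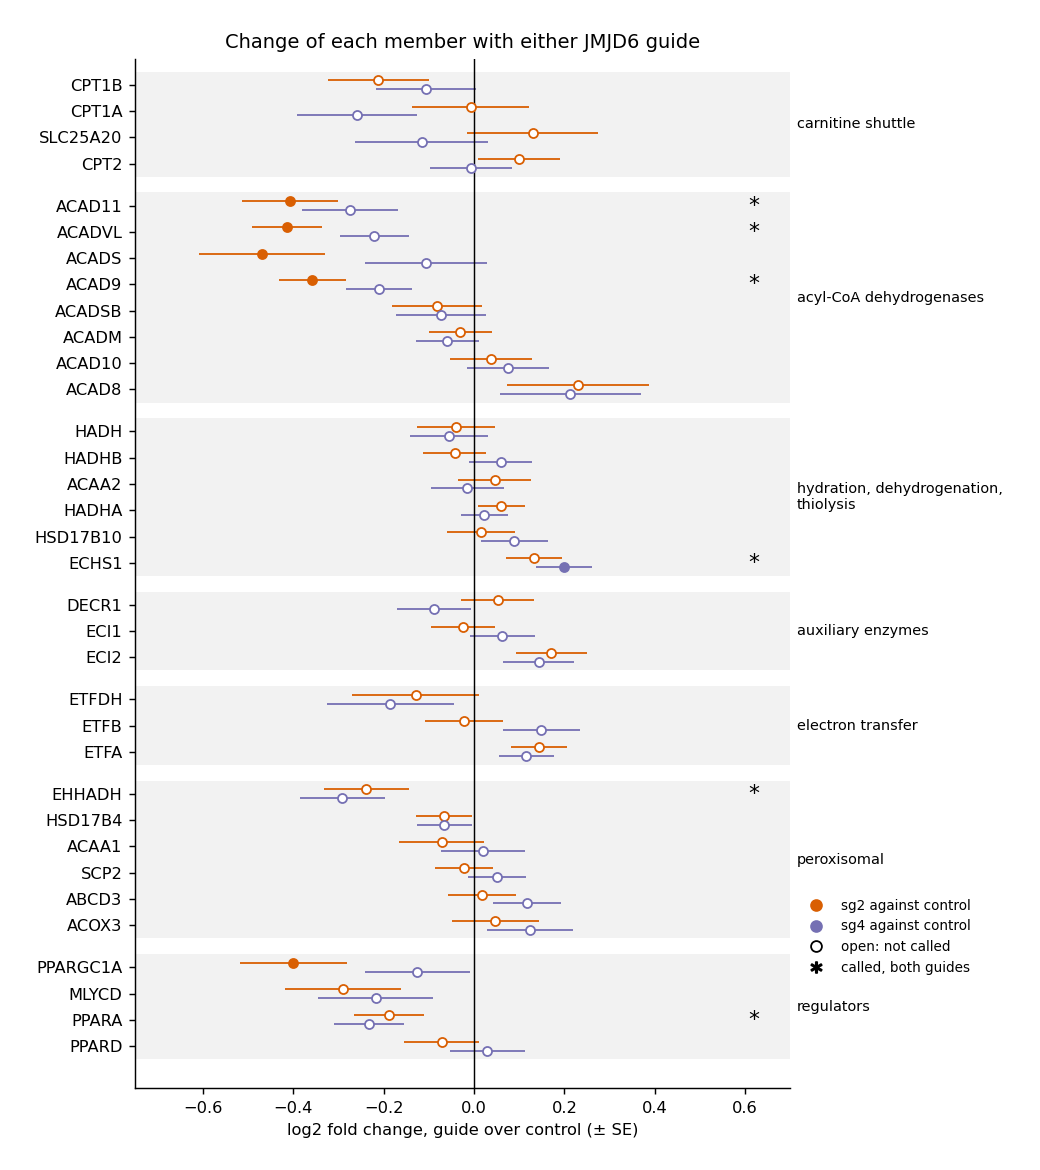
log2 fold change of 34 genes with sg2 and with sg4 over the same 3 controls, with SE bars, by role. Filled points passed the edgeR test at an adjusted p under 0.05, open points did not, and a star marks the test of both guides. The filled sg2 points are 4 dehydrogenases and PPARGC1A, and the filled sg4 point is ECHS1.

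By role, the acyl-CoA dehydrogenases held 3 of the 6 calls, where 6.95% of all genes tested fell and 6.92% rose. Of 8 tested, 3 fell with both guides, 0 rose and 5 did not pass, and their median log2 fold change was −0.18 with 6 negative and 2 positive. Of the 6 enzymes of hydration, dehydrogenation and thiolysis 1 rose and 0 fell, with a median of 0.028. The 3 auxiliary enzymes and the 3 electron transfer genes had 0 calls by edgeR, with medians of 0.019 and 0.063 and adjusted p of at least 0.141 and 0.113. Of 6 peroxisomal genes 1 fell (median −0.0058), and of 4 regulators 1 fell (median −0.23, all 4 negative).

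ACADVL had 129.6, 103.3 and 129.2 CPM with sg2, 122.6, 150.4 and 141.7 CPM with sg4, and 164.2, 164.0 and 154.9 CPM in the controls. Every knockout library lay below every control, and sg2 library 2 was the lowest. Its RNA fell by 0.41 (log2) with sg2 (SE 0.077, adjusted p = 0.000901) and by 0.32 with both guides (SE 0.066, adjusted p = 0.00191, both edgeR), and the value with sg4 was −0.22 ± 0.077 (adjusted p = 0.0727). The sg4 value was −0.13 without sg4 library 1. It passed without sg2 library 2 (adjusted p = 0.0303), without sg4 library 2 (−0.28, adjusted p = 0.0474) and with no filter on low counts (adjusted p = 0.0110, edgeR). With sg4 libraries 2 and 3 and control 3 left out, sg4 library 1 stood alone for its group and the value was −0.42. The direct comparison of sg4 with sg2 gave 0.19 ± 0.077 and an adjusted p of 0.434 by edgeR, so a difference between the guides was not shown. DLG4, a gene on the opposite strand that overlaps ACADVL, had 2324 counts over the 9 libraries beside 18947 for ACADVL.

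ACAD9 had 43.6, 47.8 and 46.7 CPM with sg2, 51.6, 50.2 and 51.2 CPM with sg4, and 61.7, 61.3 and 53.8 CPM in the controls. The knockout libraries again lay below all 3 controls, though control library 3 was close to sg4. The log2 fold change was −0.36 ± 0.074 with sg2 (adjusted p = 0.00241), −0.21 with sg4 (adjusted p = 0.0755) and −0.28 ± 0.063 with both guides (SE, adjusted p = 0.0035, edgeR). ACADVL and ACAD9 were the 2 members whose call with both guides held in all 21 alternative settings, among them the omission of each library.

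ACAD11 had 19.2, 18.3 and 19.1 CPM with sg2, 22.7, 18.4 and 20.9 CPM with sg4, and 26.4, 22.1 and 26.7 CPM in the controls. Only sg4 library 1 overlapped the controls. It fell by 0.34 with both guides (SE 0.091, adjusted p = 0.0134, edgeR) and by 0.41 with sg2 (adjusted p = 0.0149). Without control library 1 the value for both guides was −0.30 (adjusted p = 0.0953) and without control library 3 it was −0.29 (adjusted p = 0.0843, edgeR), and without control 3 and sg4 libraries 2 and 3 together it was −0.23 (adjusted p = 0.221). ACAD11 overlaps other genes, and the strand setting of the counting is not given in the sources used here, so its value is uncertain.

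ACADS had 12.8, 11.7 and 10.9 CPM with sg2, 13.1, 14.3 and 18.1 CPM with sg4, and 18.3, 17.1 and 13.4 CPM in the controls. The sg2 libraries lay below all controls, whereas sg4 library 3 was near the highest control. Its fall with sg2 was 0.47 on the log2 scale (SE 0.140, adjusted p = 0.0311, edgeR), and the values were −0.11 with sg4 (adjusted p = 0.698) and −0.29 with both guides (adjusted p = 0.111). The difference of sg4 from sg2 was 0.36 ± 0.140 (adjusted p = 0.418, edgeR), which did not pass. The sg2 call was lost when any 1 sg2 library or control 1 or 2 was left out, with adjusted p from 0.0519 to 0.167. The only uncalled dehydrogenase with a fold change among the highest of all members was ACAD8, at 0.22 with both guides (adjusted p = 0.318, edgeR).

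**Figure D3:**
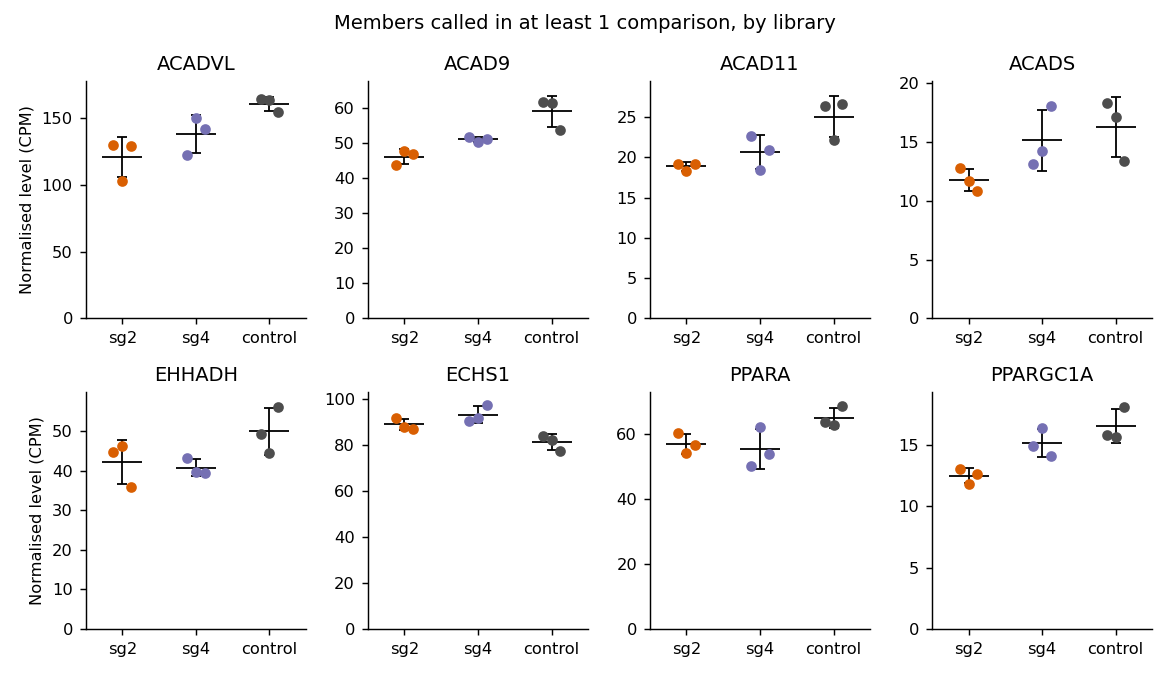
Normalised level in CPM of the 8 members called in at least 1 comparison, by library, on axes that start at 0. Points are libraries, long lines are means and bars are SD over 3 libraries in each group (sg2, sg4, control). The 6 knockout libraries lie below every control for ACADVL, ACAD9 and PPARA and above every control for ECHS1, and the pooled knockout libraries overlap the controls for the other 4.

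ECHS1, which adds water across the double bond made by the dehydrogenases, had 92.0, 88.1 and 87.2 CPM with sg2, 90.5, 92.0 and 97.4 CPM with sg4, and 84.2, 82.2 and 77.5 CPM in the controls. All knockout libraries were above all controls by a small margin. It rose by 0.20 on the log2 scale with sg4 (SE 0.062, adjusted p = 0.0458) and by 0.17 with both guides (SE 0.054, adjusted p = 0.0418, edgeR), and the value with sg2 was 0.13 (adjusted p = 0.188). These calls were close to the threshold: with both guides the call was lost in 14 of 21 alternative settings, including the omission of any 1 control (adjusted p 0.0682, 0.0937 and 0.213 without control 1, 2 and 3) and of sg2 library 1 or 2 or sg4 library 2 or 3. With sg4 it was lost in 15 of 22 settings. Without control 3 and sg4 libraries 2 and 3 the value for both guides was 0.11 (adjusted p = 0.324, edgeR). The ratio of ECHS1 to ACADVL in TPM was 1.42 ± 0.189 with sg2, 1.30 ± 0.120 with sg4 and 0.970 ± 0.0145 in the controls (SD, n = 3 each). In TPM every knockout library was above the controls for ECHS1 and below them for ACADVL. The ratios therefore could not overlap, and they add no support for the ECHS1 call.

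EHHADH had 44.7, 46.2 and 35.8 CPM with sg2, 43.2, 39.6 and 39.3 CPM with sg4, and 49.3, 44.4 and 56.1 CPM in the controls. Control library 2 lay below the 2 highest sg2 libraries. It fell by 0.27 with both guides (SE 0.081, adjusted p = 0.0284, edgeR), and the values were −0.24 with sg2 (adjusted p = 0.106) and −0.29 with sg4 (adjusted p = 0.0530). Without control library 3 the value was −0.18 (adjusted p = 0.240), and the call was also lost without control 1, sg2 library 3, sg4 library 2 or sg4 library 3 (adjusted p 0.0540 to 0.0836, edgeR). Without control 3 and sg4 libraries 2 and 3 together it was −0.13 (adjusted p = 0.455).

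PPARA, the receptor that drives oxidation genes on binding fatty acids, had 60.3, 54.1 and 56.5 CPM with sg2, 50.1, 62.04 and 53.8 CPM with sg4, and 63.8, 62.7 and 68.5 CPM in the controls. The highest knockout library was just under the lowest control. It fell by 0.21 with both guides (SE 0.067, adjusted p = 0.0357, edgeR), and did not pass with sg2 (−0.19, adjusted p = 0.125) or sg4 (−0.23, adjusted p = 0.0622) alone. At 10007 bases it has the longest transcripts among the members, and with the trend of fold change on transcript length removed the value was −0.15 (adjusted p = 0.114, edgeR). The call was also lost without any 1 of the 3 controls (−0.22, −0.24 and −0.17 without control 1, 2 and 3) and without 4 of the 6 knockout libraries in turn, with adjusted p of up to 0.178.

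PPARGC1A, which encodes the coactivator PGC-1alpha, had 13.1, 11.8 and 12.6 CPM with sg2, 15.0, 16.4 and 14.1 CPM with sg4, and 15.8, 15.7 and 18.1 CPM in the controls. The sg2 libraries were below all others, and the sg4 libraries overlapped the controls. It fell by 0.40 with sg2 (SE 0.118, adjusted p = 0.0298, edgeR), while the values were −0.13 with sg4 (adjusted p = 0.567) and −0.26 with both guides (adjusted p = 0.0832). The difference of sg4 from sg2 was 0.28 ± 0.119 (adjusted p = 0.447, edgeR). Leaving out any 1 sg2 library, control 1 or control 3 ended the sg2 call (adjusted p 0.0603 to 0.135). MLYCD, with the lowest fold change among members called in no comparison, was at −0.25 with both guides (adjusted p = 0.131), and it passed without control library 1 (−0.38, adjusted p = 0.0441, edgeR).

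The other members with extreme values among those called in no comparison were CPT1B at −0.16 (adjusted p = 0.302) and ETFDH at −0.16 (adjusted p = 0.441), and in the other direction ECI2 at 0.16 (adjusted p = 0.141) and ETFA at 0.13 (adjusted p = 0.113) on the log2 scale with both guides by edgeR. ETFA had 99.3 to 109.4 CPM in knockout libraries and 88.4 to 97.1 CPM in controls, so it too was above every control in CPM. In all, 2 members (ECHS1 and ETFA) lay above and 3 (ACADVL, ACAD9 and PPARA) below every control in all 6 knockout libraries, against 7.76% and 7.18% of all genes tested. On the TPM scale 1 member (ECHS1) lay above and 4 below, with PPARGC1A added, against 3.45% and 11.7% of genes. For sg4 against sg2 the test called 0 of 34 members, against 0.0443% of all genes higher, 0.0148% lower and 0.0591% in either direction, DESeq2 also called 0, and 3 members (8.82%) had an unadjusted p under 0.05 by edgeR, against 9.88% of all genes. In CPM the sg4 libraries were all above the sg2 libraries for 3 members (ACAD9, ACADS and PPARGC1A) and all below for 1 (CPT1A). The shares of all genes were 7.07% above and 6.99% below. In TPM the same 3 members lay above and 4 lay below (ACADM, CPT1A, CPT2 and HADHA), against 4.24% and 11.5% of all genes. By these counts a difference between the guides was not shown for the members.

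The summed TPM of each role was compared between knockout and control libraries. The 8 acyl-CoA dehydrogenases summed to 259, 232 and 260.2 TPM with sg2, to 260.2, 270.1 and 266 TPM with sg4, and to 322, 314 and 308 TPM in the controls. The ranges did not meet. Without ACADVL the other 7 summed to 134 to 145 TPM in knockout libraries, against 154 to 164 TPM in controls. That sum holds ACAD9, ACAD11 and ACADS, each called in at least 1 comparison, so in part it restates those calls. ACAD9 averaged 37.9 TPM in knockout libraries and 48.0 TPM in controls. ACAD10 was level at 14.2 TPM in both, and ACAD8 was higher, at 8.49 TPM in knockout libraries and 7.58 TPM in controls. The 4 regulators summed to 52.3 to 57.8 TPM in knockout libraries and 58.4 to 66.2 TPM in controls, also without overlap. The later mitochondrial steps summed to 699 ± 11.1 TPM with sg2, 696 ± 19.6 TPM with sg4 and 699.7 ± 5.66 TPM in the controls (SD, n = 3 each), and overlapped. The carnitine shuttle, auxiliary, electron transfer and peroxisomal sums overlapped between knockout and control libraries as well. All 35 members summed to 2136 to 2233 TPM in knockout libraries and 2258 to 2304 TPM in controls, and 27 members without the dehydrogenases to 1876 to 1969 TPM in knockout libraries and 1950.2 to 1991 TPM in controls. As a share of all counts the 35 members overlapped, at 0.182% to 0.194% in knockout libraries and 0.191% to 0.195% in controls. These sums are descriptions with no test, and on the TPM scale the median gene was itself lower, with a log2 fold change of −0.058 with both guides.

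**Figure D4:**
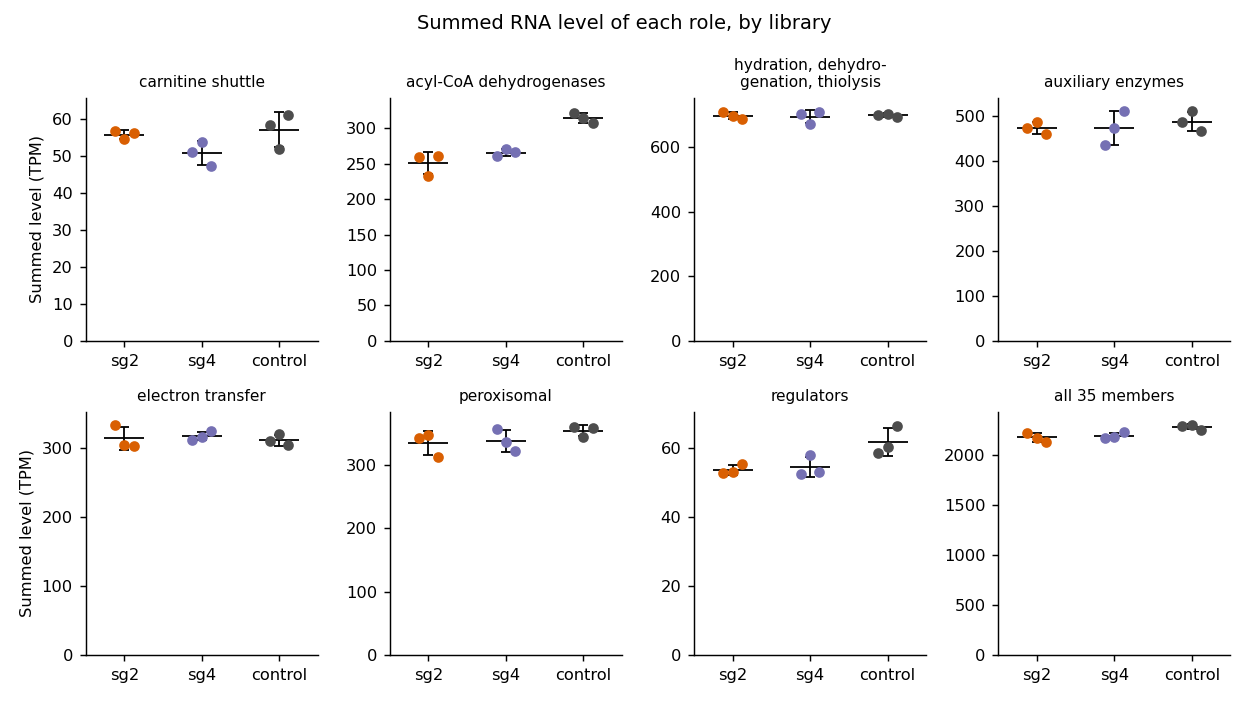
Summed level in TPM of the genes of each role and of all 35 members, by library, on axes that start at 0. Points are libraries, long lines are means and bars are SD over 3 libraries in each group (sg2, sg4, control). The knockout libraries lie below every control for the acyl-CoA dehydrogenases, the regulators and all members, and overlap the controls in the other 5 panels.

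Neighbouring pathways were described from lists of other genes, compared with both guides against the controls. For every list below, the share of all 13530 genes tested was 6.95% lower and 6.92% higher. No list was tested as a set. Of 17 genes listed under other beta- and alpha-oxidation 14 were tested, of which 1 fell and 0 rose. It was ABCD4, a transporter of the peroxisomal ABC family that serves in lysosomal cobalamin export, at 14.9 ± 1.55 CPM in knockout libraries (n = 6) and 21.3 ± 1.23 CPM in controls (n = 3), a log2 fold change of −0.51 ± 0.097 (adjusted p = 0.000763, edgeR). CRAT, CROT and ACAT1 were in that list and were not called. Of 14 other regulators, which include PPARG, PPARGC1B, ESRRA and RXRA, 0 passed.

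Of 17 PPAR target genes outside beta-oxidation 9 were tested, and 1 rose and 1 fell. ANGPTL4, a secreted lipoprotein lipase inhibitor, rose by 0.38 ± 0.11 on the log2 scale (adjusted p = 0.0207), and the mitochondrial carrier UCP2 fell by 0.23 (adjusted p = 0.0428, edgeR). The ANGPTL4 call was lost without sg4 library 3, control 2 or control 3 (adjusted p 0.0513, 0.0972 and 0.0952, edgeR). It was also lost with DESeq2 (adjusted p = 0.138) or limma on TPM (adjusted p 0.120 and 0.122). The ANGPTL4 value was 0.20 without control 3 and sg4 libraries 2 and 3. The UCP2 call was lost without any 1 control (adjusted p 0.0996 to 0.123, edgeR). Leaving out sg2 library 1 or 3 or sg4 library 1 or 3 also ended the UCP2 call (adjusted p 0.0715 to 0.0927, edgeR). So did DESeq2 (adjusted p = 0.0561), limma on TPM (adjusted p 0.0529 and 0.0539) and removal of the length trend (adjusted p = 0.0522, edgeR). Of 10 fatty acid activation genes 7 were tested, and 1 rose: ACSL4, which prefers arachidonic acid, at 180 ± 10.6 CPM in knockout libraries (n = 6) and 152 ± 5.66 CPM in controls (n = 3), a log2 fold change of 0.24 ± 0.054 (adjusted p = 0.00438, edgeR). The ACSL4 call held with each single library left out (adjusted p of up to 0.0464, edgeR). It was lost with limma on either TPM scale (0.18, adjusted p = 0.0884).

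Branched-chain amino acid breakdown, which shares ACADSB, ACAD8, ECHS1 and HSD17B10 with the genes above, had 18 tested genes in its list, of which 3 fell and 0 rose. OXCT1, the enzyme by which cells use ketone bodies, was at 74.1 ± 2.65 CPM in knockout libraries (n = 6) and 99.2 ± 5.71 CPM in controls (n = 3). Its ranges of 70.7 to 76.6 and 92.6 to 102.6 CPM were apart, and it fell by 0.42 on the log2 scale (SE 0.053, adjusted p = 8.19e-06, edgeR). MCCC1, a subunit of methylcrotonyl-CoA carboxylase, fell by 0.22 (adjusted p = 0.0340) and BCKDHA, of the branched-chain ketoacid dehydrogenase, by 0.25 (adjusted p = 0.0362, edgeR), and both calls were lost without any 1 control (adjusted p 0.0553 to 0.155).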

How the data were processed

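RNA-seq of 9 libraries of 786-O cells was used. For each RefSeq transcript the deposited tables give an estimated count (NumReads) and TPM, made with Salmon per the file headers' layout. The deposited estimated counts are all whole, for a reason not given in the sources used here. In TPM the authors' software divides by effective length and scales each library to a fixed sum. Builds hg19 and GRCh37 and the tools STAR 2.5.2b, cutadapt 1.12, Salmon and DESeq2 are named, without roles, per the submitters' processing notes. The labels' treatment text describes siRNA, whereas titles and extraction text describe guides, so groups follow the titles.

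Counts were summed per gene by accession (58031 of 60422 accessions matched, 96.0%, and unmatched ones held 1.33% to 1.65% of counts). edgeR 4.0.16 (R 4.3.3, limma 3.58.1) fitted all 9 libraries in 1 quasi-likelihood model with TMM factors after filterByExpr (13530 genes), with no replicate block. Tests were 2-sided, with Benjamini-Hochberg adjustment over all genes and calls at an adjusted p under 0.05. CPM uses the normalised library sizes. No pair among the 9 pairs of libraries of 1 group agreed within sampling noise. Alternatives were other normalisations and filters, DESeq2 1.42.0, log2(TPM + 1) or log2(TPM + 0.1) with limma, length corrections and leaving out each library. Another 2 were added after seeing the data: TPM in place of CPM for overlap, and omission of control 3, sg4 2 and sg4 3. These libraries were left out for a trend of fold change with transcript length, whose size is not given here. The omission leaves sg4 1 as the only sg4 library. The fit was first tested on simulated counts with known changes. Promoters were from RefSeq, GRCh38.p14. The members and lists were chosen with earlier results of these data known. All members' levels were described, and fold changes were given for members called in at least 1 of 4 comparisons and for the 3 highest and 3 lowest uncalled, plus called genes of 5 other lists. The peak lists were not used here.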

Additional observations from a re-analysis of the deposited data

How the results depend on the processing

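For both guides 6 members were called, and 3 were called with the replicate block, with the block and the length trend removed together, and with limma on log2(TPM + 1) or log2(TPM + 0.1). Leaving out 1 library at a time gave 3 to 5. A fit of only the groups compared does not exist for both guides, which use all groups. With sg2 (5 called), limma on either TPM scale and the omission of 3 libraries that showed a length trend each gave 3, and leaving out single libraries gave 2 to 5. With sg4 (1 called), 4 were called with no filter on low counts and 0 with upper quartile factors, the replicate block, the length trend removed, both together, or effective length offsets. Single omissions gave 0 to 3 with sg4, and 0 for sg4 against sg2.

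Over all genes, sg2 calls numbered 866 and 877 with limma on log2(TPM + 1) and log2(TPM + 0.1) and 735 to 1595 with single omissions, against 1402. Both guides gave 1116 calls without the 3 libraries and 938 to 1878 with single omissions, against 1877, and sg4 gave 358 and 606 to 1227, against 1141. Calls for sg4 against sg2 were 72 with no filter, 20 with DESeq2, 2 with the replicate block, 1 with limma on either TPM scale, 0 without the 3 libraries and 0 to 49 with single omissions, against 8. For both guides 49.9% of calls were higher, but 23.1% on log2(TPM + 1) and 59.9% with the length trend removed, and on log2(TPM + 1) the share was 26.3% with sg2 (48.3% by the main test) and 21.3% with sg4 (55.1%).

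The median log2 ratio of knockout to control levels over the members was −0.0177 in CPM, against −0.074 in TPM. The difference of sg4 from sg2 for EHHADH was 0.0355 without the 3 libraries and ran from −0.16 to 0.013 with single omissions. For PPARA it was 0.0228 with the length trend removed, 0.020 with the replicate block as well, and −0.13 to 0.028 with single omissions, and none of these differences passed the test. Replicate numbers did not pair the libraries: same-number correlations ran from −0.251 to 0.109, 1 of 9 pairs exceeded 0.1, and 0 libraries matched their own number best. The cause of these shifts was not tested. Depth limits CPT1C.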
